A study of Mus musculus with 9 samples.

Results

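Epithelial cells are specified and held together by a small set of transcription factors and by a pair of splicing factors. The 10 genes described here are Klf5, the grainyhead-like factors Grhl1, Grhl2 and Grhl3, the Ets factors Elf3 and Ehf, the zinc-finger repressor Ovol2, the p53-family factor Trp63, and the epithelial splicing regulators Esrp1 and Esrp2. They were chosen by name, with earlier results of these data known. Each was read from the brightest probe set that carried its symbol alone. All 10 were found among 22180 genes measured this way, each with 1 such probe set.

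Expression was measured on 9 arrays of mouse embryonic stem cells that carried green fluorescent protein under the promoter of Afp, the alpha-fetoprotein gene. The cells were differentiated as attached embryoid bodies of 300 starting cells in serum-containing medium with transferrin and ascorbic acid, and cells expressing the Afp reporter were sorted after 4, 7 or 21 days, with 3 arrays per day. All groups share the transgene, the medium and the sort, and no unsorted or reporter-negative cells were analysed here. Nothing in the labels states whether a day's arrays were made from independent cultures. The spread behind every p-value is therefore that of these arrays, and it may be technical. The number of arrays limits the precision, and values are log2 signals as deposited, on which 1 unit is a doubling. A signal is called above background where a day's mean exceeds the 95th percentile of 1105 olfactory receptor genes, which lay between 5.91 and 6.19 on the 9 arrays.

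As background, grainyhead-like factors bind and activate genes of the junctions between epithelial cells, such as Cdh1 and Cldn4, and Ovol2 represses mesenchymal factors such as Zeb1. Klf5 acts in gut and other epithelia and also in embryonic stem cells. Elf3 and Ehf are Ets factors of simple and glandular epithelia, and Trp63 is the main regulator of stratified epithelia. Esrp1 and Esrp2 bind RNA and direct the epithelial pattern of alternative exons, for instance in Fgfr2. These arrays were read at the level of the gene, so splice forms were not measured.

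Most of these regulators were higher in the sorted cells of day 21 than in those of day 7. Ehf, Klf5, Grhl3, Esrp2, Grhl2, Elf3, Trp63 and Grhl1 (below background on every array) rose. Esrp1 and Ovol2 did not pass, and 0 of the 10 fell. Of all genes, 12.4% were called higher and 10.7% lower. At an unadjusted limma p under 0.05 there were 9, all higher, against 33.1% of all genes in either direction and 16.2% higher. A gene was called in limma's fit over all 9 arrays at a Benjamini-Hochberg adjusted p under 0.05. Between days 4 and 7 the picture was mixed, with rises of Esrp1, Esrp2 and Grhl1, a fall of Klf5, and 6 members that did not pass. In that interval 6.98% of all genes were called higher and 6.47% lower.

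Elf3 and Grhl3 were among the 8 members called higher on day 21 than on day 7. For these 2 genes the 250 bases before the annotated start are shown. These stretches were picked because they hold letters that match known binding motifs of factors in this set or of their antagonists. Sequences are from a set of RefSeq start regions on mouse build GRCm38.p6. The set used here held 4 of the 10 members (Grhl1, Grhl3, Elf3 and Ovol2), which does not mean that RefSeq lacks the others. Both stretches shown lie on the minus strand. Capitals mark AACCGG, the core bound by grainyhead-like factors, CACCTG, the E-box bound by Zeb and Snai repressors, and CCACCC, a box bound by Klf factors, on either strand. AGGAAG, an Ets-type core, was searched too and is in neither.
Elf3 (chr1:135258473-135258722): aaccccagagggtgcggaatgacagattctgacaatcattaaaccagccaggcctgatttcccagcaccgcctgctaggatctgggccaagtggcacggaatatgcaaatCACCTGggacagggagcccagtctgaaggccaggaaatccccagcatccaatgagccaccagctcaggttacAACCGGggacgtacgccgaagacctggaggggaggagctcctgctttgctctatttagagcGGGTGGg
Grhl3 (chr4:135573633-135573882): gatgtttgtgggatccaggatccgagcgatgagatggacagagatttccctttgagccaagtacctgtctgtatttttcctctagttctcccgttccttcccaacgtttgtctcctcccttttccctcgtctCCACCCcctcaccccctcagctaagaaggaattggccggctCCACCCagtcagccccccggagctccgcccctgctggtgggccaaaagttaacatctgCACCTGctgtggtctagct

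The Elf3 stretch holds 1 match to AACCGG, starting 68 bases before the start, 1 to CACCTG at 140 bases and 1 to CCACCC on the opposite strand at 7 bases. The Grhl3 stretch holds 1 match to CACCTG, at 19 bases, and 2 to CCACCC. Among 32851 start regions cut to the same 250 bases, 5.62% held AACCGG, 17.2% CACCTG, 28.1% CCACCC and 29.5% AGGAAG on either strand, and no pair of these motifs shares letters in the stretches shown. Of the other start regions, that of Ovol2 held 1 match to CCACCC and 0 to the other motifs, and Grhl1 has 2, of which the first held 0 matches and the second 1 to CCACCC and 1 to AGGAAG. These matches are descriptions of sequence and were not tested for binding.

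**Figure D1:**
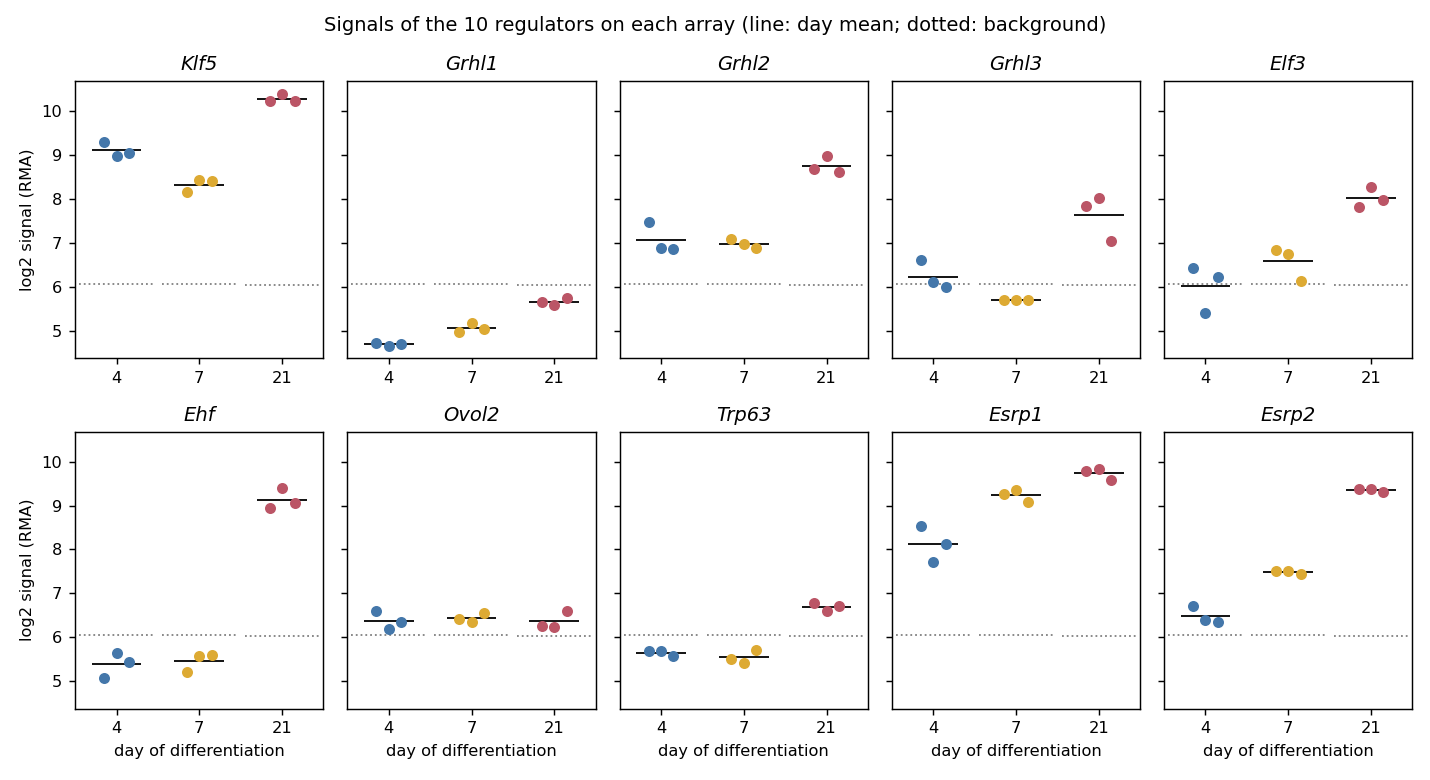
Log2 signal (RMA) of each of the 10 regulators on the y axis against day of differentiation on the x axis; points are single arrays (3 per day), black lines the day means and dotted lines the mean background of the day. Ehf and Trp63 lie under background on days 4 and 7 and above it on day 21, Grhl1 lies under it on all 9 arrays, and Ovol2 stays between 6.19 and 6.61.

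Klf5 (probe set 17302397), a zinc-finger factor, fell and then rose. Its signals were 9.30, 8.97 and 9.04 on the day 4 arrays, 8.14, 8.43 and 8.40 on day 7, and 10.23, 10.39 and 10.22 on day 21. All 3 day 7 arrays lay below all day 4 arrays, and all 3 day 21 arrays lay above both. The log2 change was -0.78 ± 0.12 (SE) from day 4 to day 7 (limma adjusted p = 0.00157) and 1.96 ± 0.12 from day 7 to day 21 (limma adjusted p = 1.52e-06), a 3.88-fold rise. Against day 4 the day 21 signal was 2.26-fold higher, so the order of levels was day 7, day 4, day 21. Klf5 was the only member called lower in any of these comparisons of days.

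All 3 grainyhead-like genes were called higher on day 21 than on day 7, Grhl1 with signals below background on every array. Grhl2 (17311104) gave 7.48, 6.88 and 6.86 on day 4 and 7.10, 6.96 and 6.88 on day 7, and these arrays overlap. On day 21 it gave 8.68, 8.97 and 8.61, all above both earlier days. The change from day 4 to day 7 was -0.10 ± 0.17, with a 95% interval from -0.48 to 0.29. From day 7 to day 21 Grhl2 rose 3.42-fold, a log2 change of 1.77 ± 0.17 (limma adjusted p = 3.41e-05).

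Grhl3 (17431478), which is known for its part in closure of the neural tube and the skin barrier, gave 6.60, 6.10 and 5.99 on day 4 and 5.69, 5.70 and 5.70 on day 7. The day 7 arrays all lay lower, but the change of -0.53 ± 0.24 did not pass (limma adjusted p = 0.199), and without day 21 array 3, which sets part of the shared spread, it did (0.0463). On day 21 its signals were 7.85, 8.01 and 7.03, with array 3 apart from the others. The log2 change from day 7 was 1.93 ± 0.24 (limma adjusted p = 0.000179). Because day 7 lay below background, the fold is given as at least 2.97-fold higher, taking background as the day 7 level.

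Grhl1 (17274513) stayed below background on every array. It gave 4.73, 4.66 and 4.70 on day 4, 4.97, 5.17 and 5.03 on day 7, and 5.64, 5.58 and 5.74 on day 21. The 3 days did not overlap and passed the test in order, with changes of 0.36 ± 0.10 (limma adjusted p = 0.0312) and 0.60 ± 0.10 (limma adjusted p = 0.00107). No fold is given for a gene under background on all days. The first of these calls was lost with the replicate block (adjusted p = 0.0592), with a trend in the prior variance (0.0531), and with a minimum fold. It was also lost without any 1 of the day 4 arrays, without day 7 array 2 and without day 7 array 3 (adjusted p from 0.0690 to 0.107).

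Both epithelial Ets factors rose between days 7 and 21. Ehf (17388774) gave 5.07, 5.65 and 5.44 on day 4, 5.21, 5.57 and 5.60 on day 7, and 8.95, 9.40 and 9.05 on day 21. The first 2 days overlap and lie below background, and the day 21 arrays stand more than 3 log2 units above them. The log2 change from day 7 to day 21 was 3.67 ± 0.18 (limma adjusted p = 2.28e-07), at least 8.44-fold higher against background.

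Elf3 (17227266) was more variable early. Its day 4 mean of 6.02 lay just under background (6.06), with 2 of 3 arrays above it. It gave 6.42, 5.41 and 6.21 on day 4, 6.84, 6.75 and 6.14 on day 7, and 7.82, 8.26 and 7.98 on day 21. Days 4 and 7 overlap, and their difference of 0.56 ± 0.26 did not pass (limma adjusted p = 0.225). From day 7 to day 21 Elf3 rose 2.72-fold, a log2 change of 1.44 ± 0.26 (limma adjusted p = 0.00238).

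Trp63 (17324486) encodes p63, the factor of basal and stratified epithelium. It gave 5.69, 5.68 and 5.57 on day 4 and 5.51, 5.42 and 5.70 on day 7, all below background, and 6.77, 6.61 and 6.72 on day 21, all above it. The early difference of -0.10 ± 0.10 did not pass (limma adjusted p = 0.648). The later log2 change was 1.16 ± 0.10 (limma adjusted p = 2.09e-05), at least 1.56-fold higher against background.

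Ovol2 (17392403) was the member with no called change. Its signals were 6.61, 6.19 and 6.34 on day 4, 6.41, 6.34 and 6.55 on day 7, and 6.26, 6.23 and 6.60 on day 21, and all 3 days overlap. The difference of day 21 from day 4 was -0.01 ± 0.14, with a 95% interval from -0.32 to 0.30, and limma's adjusted p was 0.965. From day 7 to day 21 the difference was -0.07 ± 0.14, with an interval from -0.38 to 0.24. All 9 signals lay above the background of their day, by less than 1 log2 unit.

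Esrp1 (17423291) and Esrp2 (17512634), the splicing regulators, were both above background from day 4 on and rose together between days 4 and 7. Esrp1 gave 8.53, 7.72 and 8.13 on day 4, 9.25, 9.36 and 9.07 on day 7, and 9.79, 9.84 and 9.59 on day 21. No 2 of these days overlap. Esrp1 rose 2.15-fold by day 7, a log2 change of 1.10 ± 0.18 (limma adjusted p = 0.00210). Its further change of 0.51 ± 0.18 did not pass (limma adjusted p = 0.0704), and it did pass when only the days 7 and 21 were fitted (0.0212), after a second quantile normalization (0.0357), with dim genes left out (0.0371) or with a prior trend (0.0475). It also passed without day 4 array 1 (0.0269) and without day 4 array 2 (0.0268). From day 4 to day 21 the rise was 3.06-fold (limma adjusted p = 7.35e-05).

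Esrp2 gave 6.72, 6.39 and 6.34 on day 4, 7.51, 7.51 and 7.45 on day 7, and 9.38, 9.39 and 9.30 on day 21. It was higher at each step, with no overlap and an SD of 0.05 or less among the arrays of days 7 and 21. It rose 2.01-fold by day 7 (log2 change 1.01 ± 0.11, limma adjusted p = 0.000161) and a further 3.64-fold by day 21 (1.86 ± 0.11, limma adjusted p = 1.21e-06). From day 4 to day 21 Esrp2 rose 7.33-fold (log2 change 2.87 ± 0.11, limma adjusted p = 4.89e-08). The changes of the splicing pair differed by -0.10 log2 units in the first interval (exact permutation p = 0.8, two-sided) and by 1.35 in the second (0.1, the smallest that 3 arrays against 3 allow, or 0.2 adjusted over 6 such tests of related genes).

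**Figure D2:**
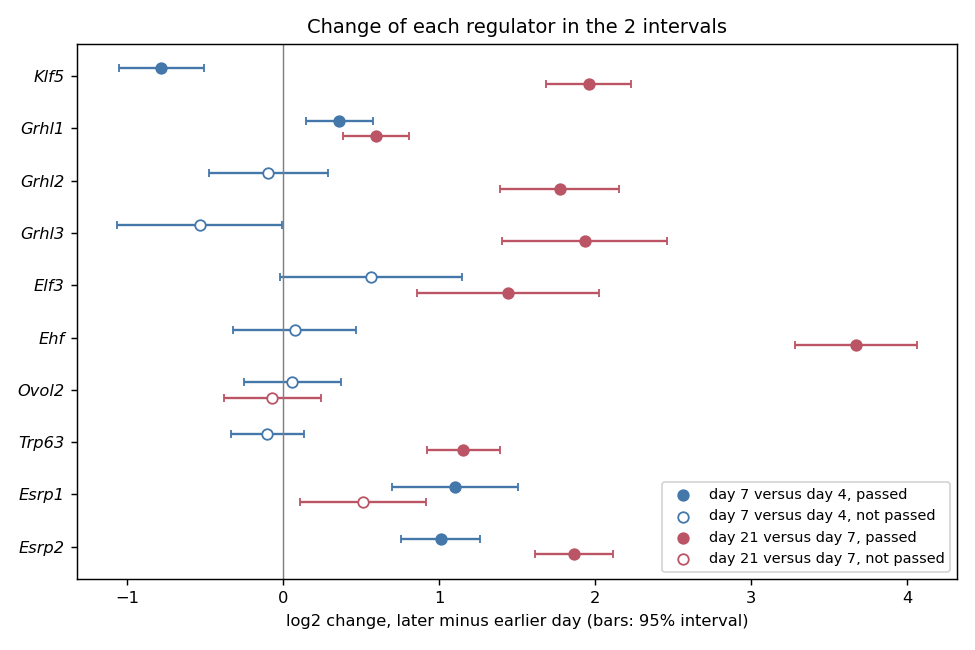
Log2 change (x axis, later minus earlier day) of each regulator (y axis) from day 4 to day 7 in blue and from day 7 to day 21 in red, with 95% intervals from limma; filled points passed at an adjusted p under 0.05. Ehf, measured from a day 7 level below background, lies farthest right at 3.67, Klf5 is the filled point on the left of 0 at -0.78, and both Ovol2 intervals span 0.

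The members' counts are read against those of all genes. The members were chosen with earlier results of these data known, so the counts describe this list and do not test for an excess. From day 4 to day 7, 3 of 10 members rose and 1 fell, against 13.4% of all 22180 genes called in either direction (6.98% higher and 6.47% lower). The members' median log2 change was 0.07, and that of all genes was -0.01. From day 7 to day 21, 8 of 10 rose and 0 fell, against 23.0% of all genes called (12.4% higher and 10.7% lower), with medians of 1.61 for the members and -0.03 for all genes. From day 4 to day 21, 9 of 10 rose and 0 fell, against 29.1% of all genes called (15.0% higher and 14.1% lower). These comparisons share arrays. With arrays centred on their medians, the share of calls that were higher fell from 53.7% to 37.6% for day 21 against day 7 and from 51.6% to 36.8% for day 21 against day 4, and the members' counts were as given. The arrays of the days compared did not overlap for 5, 9 and 9 members in the order given, against 29.9%, 35.5% and 40.4% of all genes. At an unadjusted limma p under 0.05 the members numbered 5 by day 7, against 24.5% of all genes, and 9 from day 4 to day 21, against 37.8%. Of 10 members, 6 were above background on day 4, 6 on day 7 and 9 on day 21. The counts of members that rose include Grhl1 in each comparison, although its signals lay below background on every array.

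Whether the signed change was higher in the later interval was tested in the same model, as the change from day 7 to day 21 minus that from day 4 to day 7. This test was added after the data were seen. It passed for 6 of 10 members, against 14.7% of all genes in either direction. In all 6 the later interval had the higher change, against 8.33% of all genes. A negative first change adds to this difference, as for Klf5 (-0.78) and Grhl3 (-0.53, not passed), and by less for Grhl2 and Trp63. The difference in measured signal, which for Ehf, Trp63 and Grhl3 includes days below background, was 3.60 ± 0.31 for Ehf (limma adjusted p = 2.07e-05), 2.74 ± 0.21 for Klf5 (limma adjusted p = 1.13e-05), 2.47 ± 0.41 for Grhl3, 1.87 ± 0.30 for Grhl2 and 1.26 ± 0.18 for Trp63. For Esrp2 it was 0.85 ± 0.20 (limma adjusted p = 0.0135), lost without day 7 array 3 (0.0591) and with a minimum 1.2-fold change (0.0607). It did not pass for Elf3 (0.88 ± 0.46), Grhl1 (0.24 ± 0.17), Ovol2 (-0.13 ± 0.24) or Esrp1 (-0.59 ± 0.32, limma adjusted p = 0.285). The intervals last 3 and 14 days, so the comparison is of total change and not of rate.

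Among 32 measured epithelial junction and surface genes, 17 rose and 0 fell by day 7, and 20 rose and 1 fell between days 7 and 21. Regulation of these genes by the members was not tested. The list medians were 0.60 and 0.70. Those called first were led by the tight junction genes Cldn7 (2.12 ± 0.15) and Ocln (1.76 ± 0.12) and the membrane protease Prss8 (1.79 ± 0.13). Cldn7 and Prss8 then changed by only -0.18 and 0.09, which did not pass. Those of the later interval were led by Cldn4, a claudin and known target of Grhl2 (3.14 ± 0.20), Mal2, a protein of apical transport (2.97 ± 0.16), and the keratin Krt7 (2.07 ± 0.20), and in the earlier interval none of these passed. The gene that fell late was Cldn6 (-0.71), named after its value was seen, as were Cdh1 and Epcam below. The E-cadherin gene Cdh1 was at 10.62 to 11.37 on day 4 and rose by 0.99 after day 7, and the adhesion gene Epcam rose by 0.70.

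Of 21 measured genes of basal and stratified epithelium, the tissue type that p63 governs, 2 rose and 2 fell by day 7, and 17 rose and 0 fell between days 7 and 21, with a median of 1.42. The keratin Krt15 went from a day 7 mean of 5.82, below background on every array, to 12.28, at least 74.7-fold higher (limma adjusted p = 2.83e-09). Krt17 went likewise from 5.35 to 10.91, at least 28.9-fold higher (limma adjusted p = 2.89e-08). The cornified envelope gene Sprr1a went from 5.75, a mean below background, to 9.41 (limma adjusted p = 2.75e-06). By day 7 Fras1, a basement membrane protein (1.61 ± 0.11), and the integrin Itgb4 (0.71 ± 0.12, from a mean of 5.98, below background) had risen while Itga6 fell by 0.51 ± 0.12. The first-interval median was 0.01, and its sign changed after a second quantile normalization. On day 21, 19 of the 21 were above background, against 8 on day 4. Trp63 itself rose in the same interval, from below background.

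Other transcription factors of epithelia moved in both directions. Of 19 measured, 5 rose and 1 fell by day 7, and 7 rose and 5 fell between days 7 and 21. Tfcp2l1, a relative of the grainyhead-like factors, rose by 3.08 ± 0.13 and then changed by -1.55 ± 0.13, and the hepatic factor Foxa3 followed with 1.67 ± 0.11 and -0.63 ± 0.11. Sox9 went the opposite way, with -1.30 ± 0.11 and then a 2.30-fold rise. Klf4, a relative of Klf5, changed by 0.26 in the first interval, which did not pass, and rose by 1.47 ± 0.18 in the second. Foxa1, an endodermal pioneer factor, rose by 0.74 ± 0.09 and 1.38 ± 0.09.

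Of 10 mesenchymal transcription factors, 5 fell and 0 rose by day 7, and 4 rose and 1 fell between days 7 and 21 (2 and 2 with arrays centred on their medians). Twist1 changed by -1.77 ± 0.13 and then 0.53 ± 0.13, and Prrx1 by -1.10 ± 0.24 and then 1.75 ± 0.24. Zeb1, which Ovol2 and Grhl2 are known to repress and whose day 7 mean of 5.97 lay below background, changed by -0.82 ± 0.23 by day 7 (limma adjusted p = 0.0408) and by 0.75 ± 0.23 afterwards (limma adjusted p = 0.0392). Prrx2 changed by -0.69 ± 0.11 in the later interval. Of the epithelial regulators 8 of 10, all but Ovol2 and Esrp1, were called higher on day 21 than on day 7. So were 4 of these mesenchymal factors, or 1 with a minimum 1.2-fold change. Against day 4, 1 of these mesenchymal factors was higher on day 21 and 4 were lower.

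**Figure D3:**
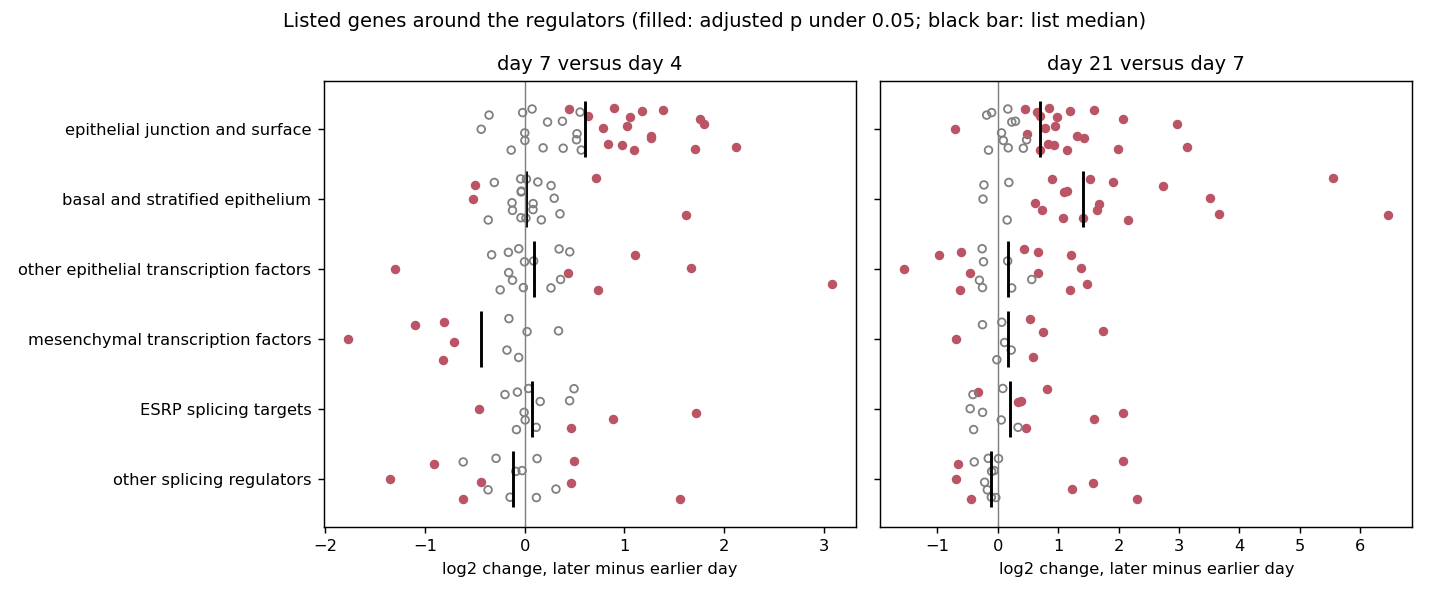
Log2 change (x axis) of every measured gene of 6 lists (y axis) from day 4 to day 7 on the left and from day 7 to day 21 on the right; filled points passed limma's adjusted test, open points did not, and black bars are list medians. In the basal and stratified list the median moves from 0.01 to 1.42, and in the mesenchymal list from -0.44 to 0.17.

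The total transcript was also read for genes whose exons Esrp proteins are known to direct. Of 14 measured, 3 rose and 1 fell by day 7, and 6 rose and 1 fell between days 7 and 21, and the counts of such genes varied with the processing (2 to 5 rising by day 7 and 0 to 4 falling later). Fgfr2, whose epithelial receptor form is directed by Esrp proteins, rose by 1.72 ± 0.14 and then by 1.59 ± 0.14. Mbnl1, itself a splicing factor, rose by 0.47 ± 0.13 and 2.07 ± 0.13. Cd44 changed by -0.45 ± 0.09 and then 0.81 ± 0.09, and Tcf7l2 by 0.88 ± 0.13 and then -0.40 ± 0.13, of which the last did not pass. Which exons these transcripts carried is not read by these values.

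Of 16 other splicing regulators, 3 rose and 4 fell by day 7, and 4 rose and 3 fell between days 7 and 21. Rbm47, an RNA-binding protein of endoderm-derived epithelia, rose at least 1.71-fold by day 7, from below background on every day 4 array, and then changed by 0.01, which did not pass. The neuronal factor Nova1 changed by -1.35 ± 0.21. The muscleblind-like genes Mbnl3 (2.30 ± 0.16), Mbnl1 and Mbnl2 (1.58 ± 0.13) rose after day 7, while Mbnl3 had changed by -0.90 ± 0.16 before. From day 4 to day 21, 5 of the 16 rose and 9 fell.

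Genes whose signals followed each member most closely over the 9 arrays are given as a description, with Pearson's r. Only genes called in at least 1 comparison were eligible. The arrays fall into 3 days, so a high r means mainly a like order of day means. For Ehf the closest were Rgn and Hsd17b2 (both 0.998) and the liver factor Onecut1 (0.997). For Esrp2 they were Foxa1 (0.997), the Wnt receptor regulator Rnf43 (0.997) and Spp2 (0.997), and for Esrp1 the desmosomal cadherin Dsg2 (0.995), Sox2 (0.992) and Scaper (0.991). For Trp63 they were the stratified keratin Krt4 (0.993), periplakin Ppl (0.993) and Igfbp7 (0.993). Klf5 had Plk2 (0.994), Slc19a2 (0.994) and Timp2 (0.993), and Grhl2 had Myo1e (0.993), Nfkbiz (0.992) and Capsl (0.991). Grhl3 had Itgav (0.986), Stx19 (0.983) and Cavin1 (0.982), Elf3 had Sfxn3 (0.988), Gcnt2 (0.981) and Jag2 (0.975), and Grhl1 had Ctse (0.990), Tmub2 (0.989) and Foxa1 (0.987). Among the members, Grhl1 and Esrp2 (0.984) and Ehf and Trp63 (0.972) were the closest pairs, and the r of Ovol2 with the other members lay between -0.23 and 0.10. Some of these r rest on signals below background. By day means, Grhl1 lay there on all days, Ehf and Trp63 on days 4 and 7, Grhl3 on day 7 and Elf3 on day 4. Of the genes most like them, Stx19 had day means of 4.01, 3.91 and 4.59. The means of Rgn, Hsd17b2, Onecut1 and Krt4 lay below background on days 4 and 7. Those of Spp2, Ctse and Jag2 did so on day 4, and that of Igfbp7 on day 7.

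The sorted cells were checked against markers. Afp signals were 5.62 to 5.93 on the day 4 arrays, 10.54 to 10.68 on day 7 and 12.95 to 13.14 on day 21, a rise of at least 23.2-fold and then of 2.47 ± 0.11 on the log2 scale. The day 4 arrays, labelled as sorted for Afp, thus lay below background for Afp, and comparisons with day 4 rest on those labels. Visceral endoderm markers, with Apob and Dab2 brightest, had mean signals of 6.68 to 6.77, 9.96 to 9.98 and 9.07 to 9.18 per array on days 4, 7 and 21. All 12 rose by day 7, and 12 of 12 were above background on days 7 and 21. Between days 7 and 21, however, 11 of the 12 fell, Apob and Dab2 among them, with a list median of -0.87, and the 1 that rose was Afp. Hepatoblast markers (8 genes, with Krt19 and Hnf4a brightest over all arrays) had mean signals of 6.28 to 6.40, 7.00 to 7.08 and 8.93 to 9.07. Of these, 3 rose and 0 fell by day 7, with a list median of 0.01, and 5 rose and 1 fell between days 7 and 21. Krt19 rose in the later interval (1.98 ± 0.15) and Hnf4a was the one that fell (-1.03 ± 0.18). In bulk cells, fewer cells of a type and less RNA per cell cannot be told apart.

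Markers of other cell types were read over the interval of the late rise, from day 7 to day 21. In it 12.4% of all genes were called higher and 10.7% lower, and the counts in these short lists are descriptions. Basal epithelium (5 genes, among them Krt15 and Krt17) lay at 5.90 to 6.02 on day 7 and 9.54 to 9.61 on day 21, with 5 of 5 called higher. These 5 genes are also part of the basal and stratified list above, and Krt5, a listed basal marker, was not measured. Urothelium (5 genes) lay at 5.93 to 6.11 and 8.07 to 8.19, with 4 of 5 higher, among them Upk1b and Upk1a. Mesenchyme (10 genes) lay at 6.14 to 6.34 and 8.75 to 9.65, with 9 of 10 higher, and its day 21 arrays differed, array 1 being highest and array 3 lowest. The proteoglycan gene Dcn went from 4.73, below background on every day 7 array, to 11.56, at least 45.4-fold higher, and the collagen genes Col1a1 and Col1a2 rose by 3.80 ± 0.25 and 2.81 ± 0.19. Intestine and stomach (9 genes) had 3 higher, which were Cdh17, Krt20 and Lgals4, and 1 lower, Vil1, while Muc13 did not pass. Mesothelium (6 genes) had 4 higher, with Upk3b and Krt19 among them, and 1 lower. Trophoblast (8 genes), another lineage with several of these regulators, had 1 higher and 3 lower, with Eomes and Hand1 among the lower. Pluripotent cells (8 genes) had 0 higher and 2 lower, with Tdgf1 lower and Sox2 not passing. Endothelium (6 genes) had 0 higher and 3 lower, with Kdr and Cdh5 among them. In cardiac muscle (6 genes) Actc1 and Myl7 were lower, in neural cells (6 genes) Sox1 and Pax6 were lower, and in leukocytes (6 genes) Csf1r and Laptm5 were higher, with no other call in these 3 lists. The genes given here for intestine, cardiac muscle, neural cells and leukocytes, and Dcn, were named after their values were seen. The part of these cell types in the members' rise was not tested; differentiation of the sorted cells and a shift in the kinds of cells caught by the sort cannot be told apart.

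**Figure D4:**
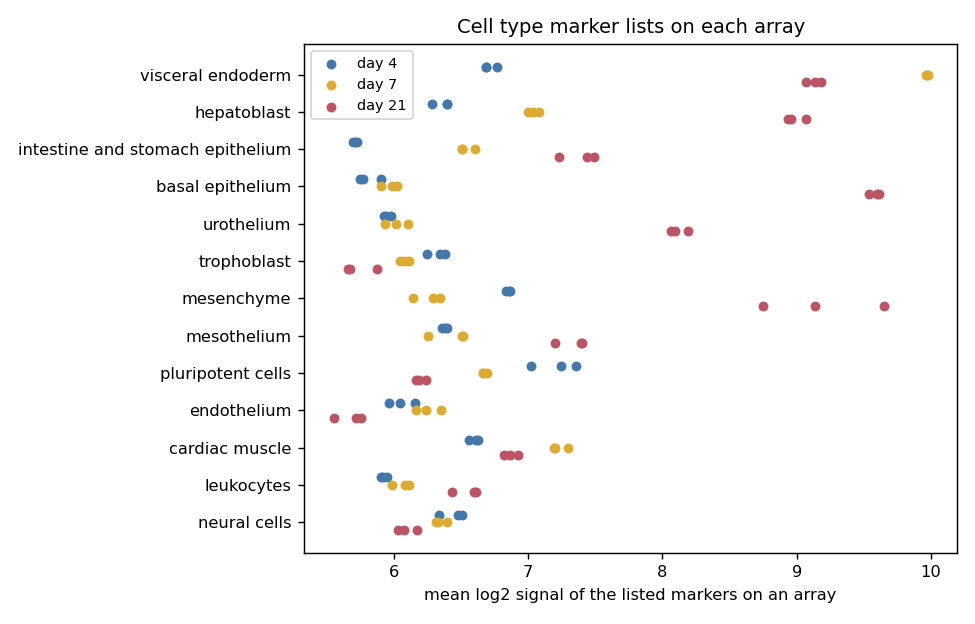
Mean log2 signal of the listed markers on each array (x axis) for each cell type (y axis), coloured by day, with 3 points per day. Basal epithelium markers reach 9.54 to 9.61 on day 21, and mesenchyme markers spread from 8.75 to 9.65 among the day 21 arrays.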

How the data were processed

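The authors deposited 1 log2 signal per probe set and array. The submitters' processing notes name RMA and Affymetrix Expression Console, with no version. Of the genome build behind the array the labels say nothing. RMA brings the arrays to a common distribution, so a shift of all transcripts together is largely removed. RNA (500pg) was labelled with a pico-input kit per the labels' protocols, which amplifies it and can distort ratios of dim transcripts. Of 34365 probe sets, 23521 carried 1 gene symbol, 1814 several and 9030 none in the platform annotation. The brightest single-symbol probe set was kept per gene (22180 genes).

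With limma 3.58.1 (R 4.3.3; lmFit, eBayes), 1 model with a mean for each day was fitted across the 9 arrays, with Benjamini-Hochberg adjustment over all genes, two-sided and with no minimum fold. The procedure was tested on simulated data. Folds against a day under background use background as that day's level. Named genes are all members, Afp, up to 3 called genes with the largest change per list in each of the 2 intervals, the 2 brightest markers per cell type over all arrays, and the 3 genes most like each called member. Of 199 listed genes, 190 were measured. The members, lists and background reference were chosen with earlier results of these data known, and the tests of intervals and of related genes were added after the data were seen.

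Days share replicate numbers in the labels. Deviations from day means of same-numbered arrays correlated between -0.05 and 0.26, and the numbers were not taken as pairs. Of 9 arrays, 6 correlated best with an array of another day that had their own number. Pairing is therefore not excluded, and a replicate block was also fitted. Alternatives were another summary of probe sets, a filter on dim genes, 2 scalings, a prior trend, fits of 2 days, a replicate block, array weights, a minimum 1.2-fold change and leaving out each array.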

Additional observations from a re-analysis of the deposited data

How the results depend on the processing

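Of 27 called changes of members, 25 kept their direction and call in all 18 alternatives that could give them, the exceptions being Grhl1 by day 7 and the interval difference of Esrp2. Leaving out each array gave 2 to 3 members higher and 1 to 2 lower by day 7, 8 to 9 higher and 0 lower from day 7 to 21, 9 higher and 0 lower from day 4 to 21, and 5 to 6 with a larger later change. The second member lower by day 7 was Grhl3, without day 21 replicate 3. Dim-gene filtering left Grhl1 out.

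With the replicate block, 2 members rose and 1 fell by day 7, 8 rose by day 21 from day 7 and 9 from day 4; the lost call was Grhl1, and 6 of 9 arrays correlated best with an array of their own number. No other call of a member changed with the block.

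Uncalled differences changed sign when single arrays were left out, with ranges of -0.20 to 0.11 for Grhl2, -0.084 to 0.21 for Ehf and -0.039 to 0.17 for Ovol2 by day 7, and -0.13 to 0.10 for Ovol2 from day 4 to 21; the cause was not tested. With a minimum 1.2-fold change, genes called higher numbered 773, 1630 and 2031 and lower 551, 950 and 1467 in the 3 comparisons, and listed genes called lower 5, 6 and 7. Centring arrays on their medians moved the median of all genes by -0.10 from day 7 to 21 and by -0.11 from day 4 to 21. It gave 3760 genes lower from day 7 to 21 (37.6% of calls higher, against 53.7%) and 17 listed genes lower, and from day 4 to 21 36.8% of calls higher against 51.6%, with member counts as before. Of 324 list counts recomputed, 43 moved by more than 1.5 times. Signals near background limit what can be seen for Grhl1, Ovol2 and the early values of Ehf, Trp63, Grhl3 and Elf3.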
